A study of Rattus norvegicus with 6 samples.

Results

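Fibrinogen and complement genes were followed in the renal cortex of rats given p-nitroanisole or corn oil. The set held the fibrinogen chain genes Fga, Fgb and Fgg, the complement component genes C1s, C4a, C3 and Cfb, and the complement regulator genes Cfi and Serping1. They were 9 of the 15645 genes named on the array, and their probes were those whose accession belongs to one of these genes in RefSeq, 16 of 61537 probes. Male Sprague-Dawley rats of the stock Crl:CD(SD), bought at 5 weeks of age, received p-nitroanisole in 3 animals, at a daily dose of 500 mg/kg for 4 weeks. The other 3 animals, the vehicle group, received corn oil for 4 weeks. Each animal gave 1 single-colour Agilent array of cortex RNA. The labels do not name the route of dosing.

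Fibrinogen is built from pairs of alpha, beta and gamma chains, and thrombin turns it into the fibrin of clots. Complement is a cascade of plasma proteases in which the classical and alternative routes meet at C3, while regulators inactivate the proteases and their products. The liver makes most of both, and they are known as acute phase proteins that respond to interleukin 6 and related cytokines. Tubular cells, resident macrophages and other kidney cells also transcribe several of them.

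The arrays had 40873 to 42600 probes well above background, the scanner software's flag for a spot clearly brighter than its surroundings. Values below are scaled intensities, the processed intensity over the array's 75th percentile, so that 1 is the 75th percentile of that array. Treated replicate 3 was on a second slide, the other 5 arrays on the first, and treated replicates 1 and 2 lay in row 2 of their slide while the other arrays lay in row 1. Treated replicate 3 correlated with the other arrays at 0.989 to 0.991, treated replicates 1 and 2 with each other at 0.994, and the vehicle arrays with each other at 0.993 to 0.994. Probes for the expected cell types of cortex were present, with all 8 proximal tubule markers and all 5 podocyte markers well above background on all 6 arrays.

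RefSeq's promoter table (build GRCr8) holds windows for 6 of the 9 genes, Fga, Fgb, Fgg, C3, C4a and Cfi, with 2 start sites for Fga. Each window of 250 bases before and 50 bases after the gene start was searched on both strands for letters known from cytokine-responsive promoters. The interleukin 6 response element CTGGGAA, known from rat acute phase genes, was in the windows of Fgb, Fgg, C3 and C4a, 4 of 6 genes, against 11.3% of 33469 windows of the same length. The STAT pattern TTCNNNGAA was in those of Fga and Fgb (2 of 6 genes, against 8.87% of windows). The 250 bases before the start of these 5 genes are shown because their matches can be compared directly. Capitals mark CTGGGAA and TTCNNNGAA, and each sequence is on the gene's strand, 5′ to 3′.
Fgg promoter, GRCr8 chr2:170652833-170653082, plus strand: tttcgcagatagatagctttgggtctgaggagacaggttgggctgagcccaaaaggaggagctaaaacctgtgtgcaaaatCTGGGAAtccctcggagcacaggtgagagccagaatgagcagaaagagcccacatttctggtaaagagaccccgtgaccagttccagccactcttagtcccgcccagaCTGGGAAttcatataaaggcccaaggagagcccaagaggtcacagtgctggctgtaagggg
Fga promoter, upstream start, GRCr8 chr2:170671919-170672168, plus strand: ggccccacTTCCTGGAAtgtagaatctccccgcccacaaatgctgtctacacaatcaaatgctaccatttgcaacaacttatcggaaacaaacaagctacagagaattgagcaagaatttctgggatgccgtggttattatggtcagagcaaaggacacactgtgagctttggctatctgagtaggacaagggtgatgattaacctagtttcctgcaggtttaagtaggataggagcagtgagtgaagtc
Fgb promoter, GRCr8 chr2:170700876-170701125, minus strand: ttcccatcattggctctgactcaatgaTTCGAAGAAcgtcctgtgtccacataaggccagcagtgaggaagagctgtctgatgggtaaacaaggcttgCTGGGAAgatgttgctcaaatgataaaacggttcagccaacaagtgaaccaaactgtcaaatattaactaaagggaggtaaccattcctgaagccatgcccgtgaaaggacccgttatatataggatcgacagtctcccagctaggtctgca
C3 promoter, GRCr8 chr9:2201340-2201589, minus strand: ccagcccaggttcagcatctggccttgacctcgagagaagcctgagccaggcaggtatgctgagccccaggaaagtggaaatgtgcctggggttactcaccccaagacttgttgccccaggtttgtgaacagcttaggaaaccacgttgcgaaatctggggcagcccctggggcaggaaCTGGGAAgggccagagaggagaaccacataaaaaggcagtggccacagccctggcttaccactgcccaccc
C4a promoter, GRCr8 chr20:4010107-4010356, plus strand: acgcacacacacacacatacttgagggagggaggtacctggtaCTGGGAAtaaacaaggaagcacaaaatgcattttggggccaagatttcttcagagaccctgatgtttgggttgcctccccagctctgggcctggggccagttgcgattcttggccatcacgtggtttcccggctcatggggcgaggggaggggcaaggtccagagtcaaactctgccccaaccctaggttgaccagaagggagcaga
Fgg held CTGGGAA at 2 places, at positions -169 to -163 and -61 to -55 relative to the start. The C/EBP pattern TTGCNNAA was in the windows of Fga, Fgb and C3 (3 of 6 genes, 10.6% of all windows) and the NF-kB pattern, GGG and CC parted by 5 open bases, in those of Fga, Fgg, C3 and C4a (4 of 6, 47.3%). In C3 an NF-kB match overlapped CTGGGAA by 5 bases. The interferon pattern, GAAA repeated after 2 open bases (3.92% of windows), and the HNF1 pattern, GTTAAT and ATTAA parted by 1 open base (0.0448%), had no match in these windows. A match of letters is a description and not a binding site.

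Across the set, the lower values with p-nitroanisole were those of Cfb, C3 and C4a, whose treated arrays all lay below every vehicle array, at 2.01-fold, 1.64-fold and 1.33-fold lower by the means of their log2 values. Fga, Fgb, Cfi, C1s and Serping1 overlapped between the groups. Fgg had a log2 difference of 0.98 from a spot close to background. None of the 9 genes passed the test over the whole table, 0 of 9 at a limma adjusted p of 0.05, where 24 of 32196 rows passed (0.0745%, with 0.0497% higher and 0.0248% lower). Before adjustment, 2 members had p under 0.05, Cfb and C4a, both lower, against 13.4% of all rows at that level, 5.76% lower and 7.68% higher. In 3 of the 9 the groups did not overlap and the treated arrays were the lower ones, against 10.3% of all rows lower without overlap, and 22.2% without overlap in either direction. Over the 9 genes 7 log2 differences were below 0, with a median of -0.22, against 47.6% of rows below 0 and a median of 0.01 over all rows. The members were chosen with earlier results of these data known, so these shares are a description and not a test.

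**Figure D1:**
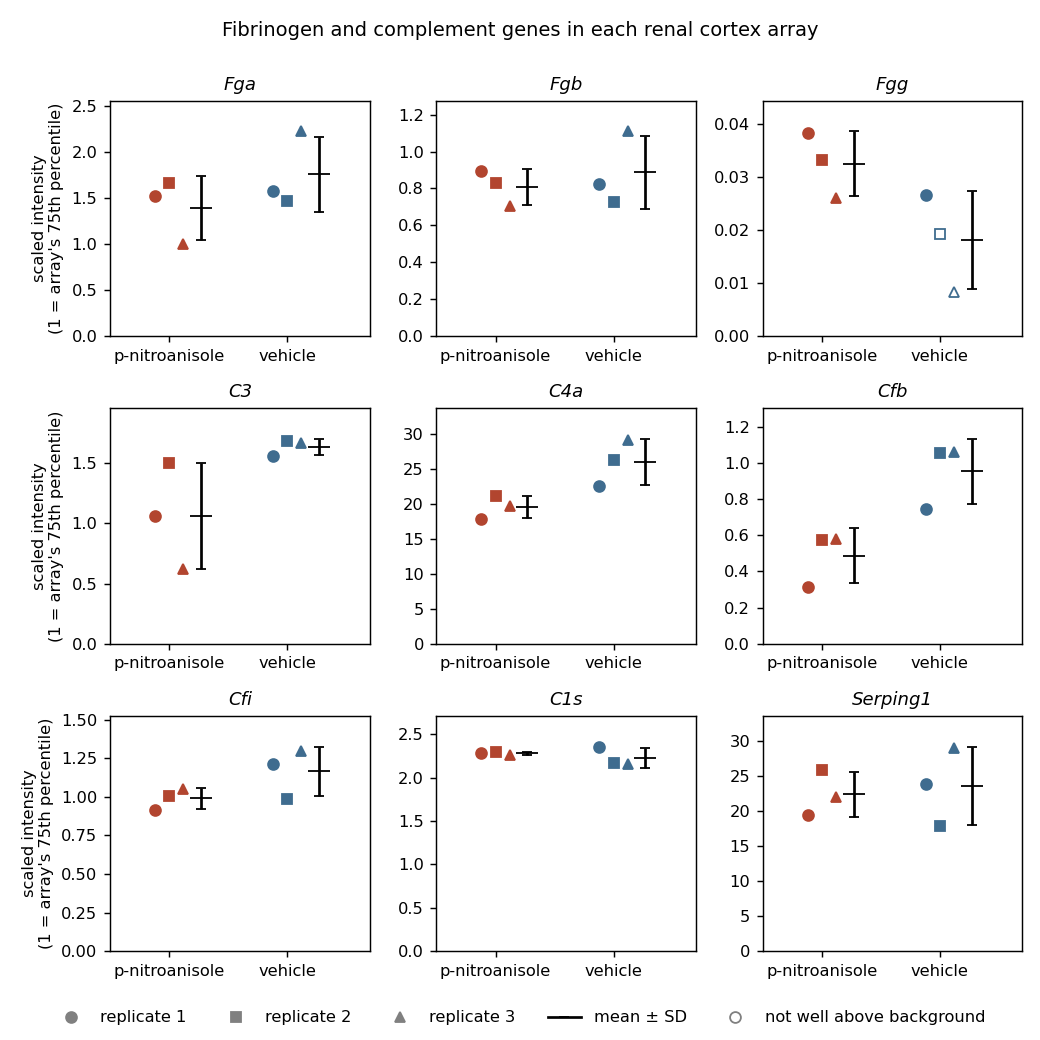
Scaled intensity (y axis, 1 is the array's 75th percentile) of the 9 genes on each array, p-nitroanisole left and vehicle right, with 1 symbol per replicate, the mean ± SD beside it, and open symbols where the spot was not well above background. C3, C4a and Cfb have every treated array below every vehicle array, and Fgg is the one gene with open symbols.

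Fga, the alpha chain of fibrinogen, read 1.52, 1.66 and 0.997 in treated replicates 1, 2 and 3, against 1.58, 1.47 and 2.23 in vehicle replicates 1, 2 and 3. The groups overlapped, with the lowest value in treated replicate 3 and the highest in vehicle replicate 3. The mean was 1.39 ± 0.350 in treated rats and 1.76 ± 0.409 in vehicle rats (SD, n = 3 each), a log2 difference of -0.35 (SE 0.25, 95% interval -0.95 to 0.26, limma adjusted p = 0.576). Without treated replicate 3 it was -0.12.

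Fgb, the beta chain, had 2 probes. Its brighter probe read 0.893, 0.830 and 0.703 in treated replicates 1 to 3, against 0.827, 0.728 and 1.11 in vehicle replicates 1 to 3. The treated arrays lay within or just below the range of the vehicle arrays, and vehicle replicate 3 was again the highest array. Fgb had a log2 difference of -0.12 (SE 0.18, 95% interval -0.56 to 0.32, limma adjusted p = 0.792), and the second probe gave -0.13. The value was 0.05 without vehicle replicate 3.

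Fgg encodes the gamma chain, which carries the site that binds platelet integrins. Its brighter probe read 0.0383, 0.0332 and 0.0261 in treated replicates 1 to 3, against 0.0267, 0.0192 and 0.00837 in vehicle replicates 1 to 3. The spot was well above background on all 3 treated arrays and on 1 of 3 vehicle arrays, replicate 1. It therefore entered the test through the group in which it was brighter. The treated and vehicle ranges met, since treated replicate 3 lay just below vehicle replicate 1.
In processed intensity the 6 values ran from 24.9 to 35.4 in treated rats and from 8.19 to 27.3 in vehicle rats, where the faintest spots called well above background lay between 15.0 and 19.5. The log2 difference was 0.98 (SE 0.43, 95% interval -0.08 to 2.05, limma adjusted p = 0.404). It was 0.32 with the normexp background correction, 0.50 without vehicle replicate 3, 1.34 without vehicle replicate 1 and 0.43 on the second Fgg probe. The second probe was well above background on 1 of 3 treated and 2 of 3 vehicle arrays and was not tested. At these intensities a difference in Fgg was not resolved from background.

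The fibrinogen genes lie next to each other on rat chromosome 2, in the order Fgg, Fga, Fgb with no other gene of the RefSeq table between them. Fga and Fgb varied together over the 6 arrays (Pearson r = 0.87, and 0.88 after each group's mean was removed). No correlation is given for Fgg, since 2 of its 3 vehicle values were not well above background. These 6 points share 2 groups and their array's scaling, so the correlations describe the arrays only.

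C1s, the protease of the C1 complex that cleaves C4, read 2.28, 2.29 and 2.26 in treated replicates 1 to 3, against 2.36, 2.17 and 2.15 in vehicle replicates 1 to 3. The treated arrays were 1.01-fold apart from lowest to highest, inside the wider range of the vehicle arrays. C1s had a log2 difference of 0.03 (SE 0.07, 95% interval -0.13 to 0.20, limma adjusted p = 0.838), which was the narrowest interval among the 9 genes. The second probe gave 0.11 (SE 0.08), and with median scaling the first probe turned to -0.020.

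C4a encodes complement component C4, whose cleavage products form the C3 convertase of the classical route. It read 17.9, 21.1 and 19.7 in treated replicates 1 to 3, against 22.6, 26.3 and 29.1 in vehicle replicates 1 to 3. All treated arrays lay below all vehicle arrays, and vehicle replicate 1 was the closest to them. The mean was 19.6 ± 1.60 in treated rats and 26.0 ± 3.26 in vehicle rats (SD, n = 3 each). The log2 difference was -0.41 (SE 0.12, 95% interval -0.70 to -0.12, unadjusted p = 0.0140 and adjusted p = 0.256, both from limma). The second probe read 1.42, 1.57 and 1.42 in treated rats, against 1.73, 2.04 and 2.27 in vehicle rats, again without overlap (log2 difference -0.45, SE 0.12). A near-identical copy, C4b, has no probe of its own name here, and the C4a probes may not tell the copies apart.

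C3, at which all complement routes meet, read 1.06, 1.50 and 0.623 in treated replicates 1 to 3, against 1.56, 1.68 and 1.67 in vehicle replicates 1 to 3. The vehicle arrays were 1.08-fold apart from lowest to highest and the treated arrays 2.41-fold, with treated replicate 2 close to the vehicle range and treated replicate 3 farthest below it. The mean was 1.06 ± 0.438 in treated rats and 1.64 ± 0.0674 in vehicle rats (SD, n = 3 each). C3 thus had a log2 difference of -0.71 (SE 0.31, 95% interval -1.47 to 0.05, limma adjusted p = 0.397).
Single arrays moved this value by more than for the other members with groups apart. Within slide 1, which leaves out treated replicate 3, the log2 difference was -0.37 (SE 0.16, limma adjusted p = 0.403). Within row 1 of the slides, where treated replicate 3 was the one treated array, it was -1.39 and passed the threshold (limma adjusted p = 0.0452), in a fit that called 999 rows. The lone treated array is assumed there to vary like the others. Slide, row and animal cannot be told apart for that array.

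Cfb, factor B, supplies the protease of the alternative route's C3 convertase. Its brighter probe read 0.311, 0.572 and 0.579 in treated replicates 1 to 3, against 0.746, 1.06 and 1.06 in vehicle replicates 1 to 3. The groups did not overlap, and the lowest array in each group was replicate 1. The mean was 0.487 ± 0.153 in treated rats and 0.953 ± 0.180 in vehicle rats (SD, n = 3 each). The log2 difference was -1.01 (SE 0.29, 95% interval -1.71 to -0.30, unadjusted p = 0.0128 and adjusted p = 0.250, both from limma).
The second Cfb probe read 0.0744, 0.158 and 0.172 in treated replicates, against 0.195, 0.274 and 0.263 in vehicle replicates, without overlap and with a log2 difference of -0.94. Within slide 1 the value of the brighter probe was -1.16, within row 1 it was -0.70, and leaving out single arrays gave -1.17 to -0.71. Since the groups did not overlap on either Cfb probe, none of these fits could have changed the sign. The adjusted p did not pass within slide 1 or with any single array left out.

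Cfi, factor I, is the protease that inactivates C3b and C4b. It read 0.918, 1.01 and 1.05 in treated replicates 1 to 3, against 1.21, 0.984 and 1.29 in vehicle replicates 1 to 3. The groups overlapped through vehicle replicate 2, and the log2 difference was -0.22 (SE 0.12, 95% interval -0.53 to 0.08, limma adjusted p = 0.479).

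Serping1, the C1 inhibitor, had 3 probes, all well above background on every array. Its brightest probe read 19.4, 25.8 and 22.0 in treated replicates 1 to 3, against 23.9, 17.8 and 29.1 in vehicle replicates 1 to 3. The treated values lay inside the vehicle range. The log2 difference was -0.06 (SE 0.20, 95% interval -0.55 to 0.44, limma adjusted p = 0.921), while the other probes gave 0.07 and 0.14, so no direction can be given for this gene.

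**Figure D2:**
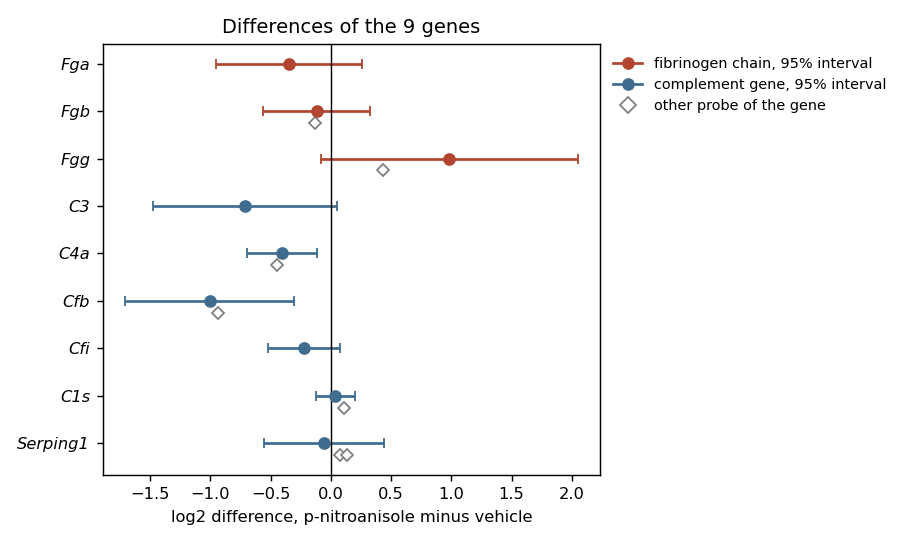
Log2 difference (x axis, p-nitroanisole minus vehicle) of the 9 genes, with points and bars for the tested probe and its 95% interval from limma, and open diamonds for other probes of the gene. The intervals of C4a and Cfb lie below 0, and that of Fgg, -0.08 to 2.05, is the widest.

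Cfb and C4a lie close together on rat chromosome 20, with Nelfe, Skic2, Dxo and Stk19 between them. Over the 6 arrays they varied together (Pearson r = 0.94, and 0.81 after each group's mean was removed). The 4 genes between them had log2 differences of 0.11 (SE 0.06), -0.01 (SE 0.07), -0.00 (SE 0.06) and -0.09 (SE 0.06). Nelfe was higher and Stk19 lower on every treated array (limma adjusted p = 0.506 and 0.527), while Skic2 and Dxo overlapped between the groups. C2, the classical counterpart of factor B and a paralogue of Cfb, had -0.03 (SE 0.23). C3 tracked Fga (r = 0.83) more than Cfb (r = 0.54), which matches the arrays with their lowest values, treated replicate 3 for C3 and Fga and treated replicate 1 for Cfb and C4a. Cfi and Serping1 had r = 0.76, and both were lowest among vehicle arrays in replicate 2 and highest in replicate 3, as were Fga and Fgb.

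**Figure D3:**
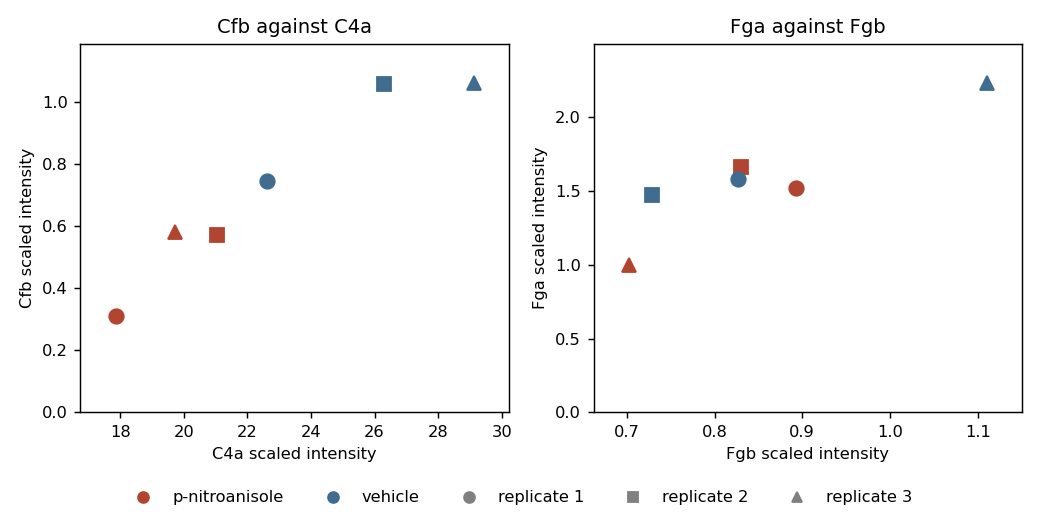
Scaled intensity of Cfb against C4a (left) and of Fga against Fgb (right), 1 point per array, coloured by group and shaped by replicate. In the left panel the 3 treated arrays lie below and to the left of the 3 vehicle arrays (r = 0.94), and in the right panel the groups are mixed, with treated replicate 3 lowest and vehicle replicate 3 highest on Fga.

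By a fixed rule, the named genes outside the set whose profile over the 6 arrays was most like that of C3 were Rilpl1, Lpgat1 and Atf6 (r = 0.998, 0.997 and 0.997 among 12198 genes). Their log2 differences were -0.12, -0.10 and -0.27, with limma adjusted p from 0.407 to 0.567. Those most like the mean of the fibrinogen chains were Nsmf, Ppp2r5c and Flii (r = 0.993, 0.989 and 0.988), with log2 differences of 0.06, 0.07 and 0.04. That mean includes the faint Fgg spot, whose vehicle arrays were 3.19-fold apart from lowest to highest. These likenesses therefore rest partly on values near background.

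The other genes of these pathways were read from 10 lists, of whose 138 entries 122 were on the array and 96 were tested. Of these, 0 were called. In the classical and lectin pathway 3 of 9 tested genes were higher and 6 lower, with a median log2 difference of -0.06. The C1q chains, made in kidney mainly by macrophages, had similar differences over all arrays, with C1qb at -0.41 (SE 0.14), C1qa at -0.40 (SE 0.24) and C1qc at -0.39 (SE 0.17). C1qb averaged 8.16 ± 1.07 in treated rats and 10.8 ± 1.48 in vehicle rats (SD, n = 3 each), with overlapping groups and a limma adjusted p of 0.319. Without treated replicate 3 the differences were -0.33 for C1qb, -0.20 for C1qa and -0.25 for C1qc.

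In the alternative and terminal pathway 2 of 4 tested genes were higher and 2 lower (median 0.20). C6, a subunit of the membrane attack complex, was higher on all 3 treated arrays, 0.319 ± 0.00957 in treated rats and 0.220 ± 0.0269 in vehicle rats (SD, n = 3 each, log2 difference 0.54, SE 0.11, limma adjusted p = 0.159). C8b, which encodes another subunit of that complex, was lower on all 3 treated arrays, 0.146 ± 0.00884 in treated rats and 0.208 ± 0.0129 in vehicle rats (SD, n = 3 each, log2 difference -0.52, SE 0.08, limma adjusted p = 0.119). Cfd, factor D, which cleaves factor B, read 0.237, 0.123 and 0.123 in treated rats, against 0.118, 0.103 and 0.0915 in vehicle rats, without overlap. Its log2 difference of 0.56 (SE 0.28, limma adjusted p = 0.445) rested largely on treated replicate 1. C8a and C9, further genes of the attack complex, were well above background on 0 of 6 arrays.

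Complement regulators had 5 of 9 higher and 4 lower (median 0.02), with the surface regulators Cd55 at 0.36 (SE 0.15) and Cd46 at -0.36 (SE 0.15; -0.15 with normexp). Complement receptors had 1 of 5 higher and 4 lower (median -0.09), led by C5ar2 at -0.30 (SE 0.31; 0.01 with normexp) and C3ar1 at -0.25 (SE 0.18). Without treated replicate 3 these were -0.057 for C5ar2, -0.080 for C3ar1, 0.23 for Cd55 and -0.47 for Cd46. None of these 4 regulator and receptor genes passed, with limma adjusted p from 0.377 to 0.694.

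Among coagulation and anticoagulation genes 9 of 11 were higher and 2 lower (median 0.11). F2, prothrombin, read 3.06, 10.4 and 3.67 in treated rats, against 5.18, 0.876 and 3.65 in vehicle rats, a spread wider than the log2 difference of 0.94 (SE 0.79). F12, factor XII, had 0.69 (SE 0.47), and read 0.0438, 0.150 and 0.0510 in treated rats, against 0.0409 to 0.0465 in vehicle rats, so that treated replicate 2 stood apart. Fibrinolysis genes had 3 of 10 higher and 7 lower (median -0.03). Plau, urokinase, was lower on every treated array, 6.40 ± 0.745 in treated rats and 8.50 ± 0.938 in vehicle rats (SD, n = 3 each, log2 difference -0.41, SE 0.12, limma adjusted p = 0.263). Fibrin and fibrinogen receptors and integrins had 4 of 5 higher (median 0.14), with Itga5 at 0.34 (SE 0.13) and Icam1 at 0.15 (SE 0.12).

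Acute phase genes were evenly split, 7 of 14 higher and 7 lower (median 0.01). Kng1, kininogen, had 0.75 (SE 0.57) and Serpina3n 0.67 (SE 0.69), both with overlapping groups, and Orm1 and Crp were well above background on 0 of 6 arrays. In the list of interleukin 6 family receptors and STAT3 signalling 9 of 17 were higher (median 0.03). Il6 itself was well above background on 0 of 6 arrays. Lif, a cytokine of the interleukin 6 family, was higher on every treated array (log2 difference 0.68, SE 0.21, 0.40 with normexp, limma adjusted p = 0.269). Socs1, a feedback inhibitor, had -0.70 (SE 0.41; -0.16 with normexp). Socs3 was also higher on every treated array (log2 difference 0.37, SE 0.09, 0.31 with normexp, limma adjusted p = 0.205). In the list of NF-kB and interferon regulators 8 of 12 were higher and 4 lower (median 0.12). The chemokine genes Cxcl1 and Ccl2 were higher on every treated array, at 1.09 (SE 0.38) and 0.97 (SE 0.26), with limma adjusted p of 0.317 and 0.227. Normexp gave 0.64 for Cxcl1 and 0.88 for Ccl2. Tnfrsf1a was higher on every treated array as well, at 0.29 (SE 0.08, limma adjusted p = 0.233). Nfkbia had -0.59 (SE 0.27, limma adjusted p = 0.417), with overlapping groups. Irf7, an interferon-induced transcription factor, and Ifngr1, a chain of the interferon gamma receptor, were lower on every treated array, at -0.87 (SE 0.26) and -0.28 (SE 0.09), with limma adjusted p of 0.269 and 0.298. Ifng was well above background on 0 of 6 arrays.

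**Figure D4:**
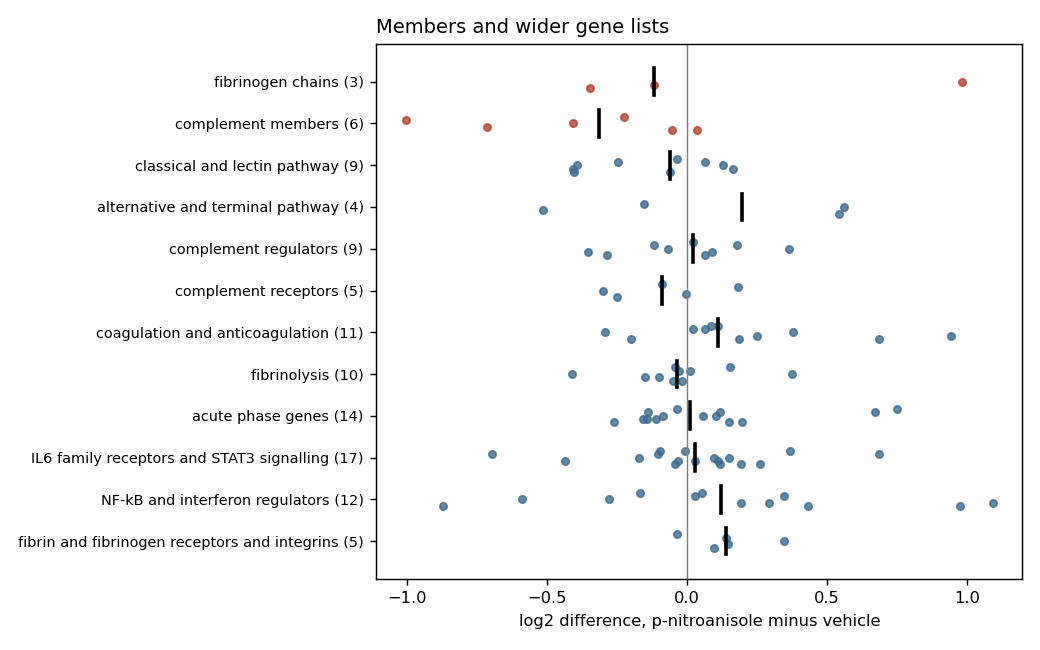
Log2 difference (x axis, p-nitroanisole minus vehicle) of each tested gene (points) in the fibrinogen and complement sets (red) and the 10 wider lists (blue), with black bars at the medians and the number of tested genes in brackets. The complement members have the lowest median, -0.32, and the wider lists have medians between -0.09 and 0.20. Members and lists were chosen with earlier results of these data known, so the medians are a description.

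Markers of other cells were read beside these values. Macrophage markers had 5 of 7 tested genes lower, and their summed scaled intensity was 65.2 to 71.6 in treated rats and 81.6 to 95.7 in vehicle rats, without overlap. Most of that sum was Lyz2, a lysozyme gene, at 57.0 ± 1.33 in treated rats and 72.6 ± 8.46 in vehicle rats (SD, n = 3 each, log2 difference -0.34, SE 0.10). The list's median log2 difference was -0.046, with Aif1 at -0.49 (SE 0.23, and -0.24 without treated replicate 3), Cd68 at -0.43 (SE 0.17) and Mrc1 at 0.52 (SE 0.18). Adgre1, Cd14 and Csf1r, the receptor of a macrophage growth factor, had -0.046 (SE 0.14), -0.030 (SE 0.17) and 0.011 (SE 0.09). Cd163 was well above background on 0 of 6 arrays. In whole tissue fewer cells of a type and less RNA per cell cannot be told apart, and the part of the macrophage markers in the lower C1q, C3, C4a and Cfb values was not tested. Liver markers had 3 of 8 tested genes higher, with sums of 15.0 to 19.7 in treated rats and 16.0 to 17.5 in vehicle rats, and Apoa2, Cps1 and Tat were well above background on 0 of 6 arrays. The 2 largest liver marker differences were those of Apob at 0.94 (SE 0.51) and Ahsg at 0.25 (SE 0.12).

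Platelet markers had 4 of 5 higher, with sums of 2.34 to 2.68 in treated rats and 1.90 to 2.27 in vehicle rats. Pf4 led at 0.56 (SE 0.18), followed by Gp9 at 0.28 (SE 0.09). Treml1, Gp5 and Gp1bb had 0.12 (SE 0.20), 0.005 (SE 0.14) and -0.016 (SE 0.13), all with overlapping groups. Leaving out treated replicate 3 gave -0.098, -0.070 and -0.061 for these, and 0.51 for Pf4 and 0.34 for Gp9. Gp1ba was well above background on 0 of 6 arrays. Neutrophil markers had 4 of 4 higher, with sums of 1.32 to 1.42 in treated rats and 0.471 to 0.627 in vehicle rats. Of these, S100a8 was called (log2 difference 1.78, SE 0.16, limma adjusted p = 0.0453). Most of each sum was S100a9 and S100a8, at means of 0.807 and 0.388 in treated rats and 0.281 and 0.113 in vehicle rats. Camp had 0.47 (SE 0.13), while Csf3r was flat, at 0.03 (SE 0.09) with overlapping groups. Cxcr2 and Elane were well above background on 0 of 6 arrays. Red cell markers had 6 of 6 higher, with sums of 296 to 337 in treated rats and 159 to 183 in vehicle rats, and Alas2 was called at 1.91 (SE 0.14). Most of these sums was Hbb, at 295 ± 20.6 in treated rats and 161 ± 12.7 in vehicle rats (SD, n = 3 each). Slc4a1 was flat, at 0.003 (SE 0.17) with overlapping groups. T cell markers had 7 of 7 lower, with overlapping sums of 1.21 to 1.81 in treated rats and 1.45 to 1.87 in vehicle rats. Without treated replicate 3, Cd2 and Cd8a turned to 0.19 and 0.16. Cd3e had -0.67 (SE 0.44, -0.36 without treated replicate 3 and -0.20 with normexp) and Cd3g -0.51 (SE 0.26). The Cd3e spot was well above background on 2 of 3 treated arrays. The part of these lists in the members' values was not tested.

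Among cells resident in cortex, proximal tubule markers had 7 of 8 higher, with sums of 1581 to 1653 in treated rats and 1512 to 1521 in vehicle rats, Slc22a6 at 0.18 (SE 0.06) and Slc5a12 at 0.15 (SE 0.15). Thick limb and collecting duct markers had 5 of 7 lower, with overlapping sums of 476 to 496 in treated rats and 425 to 533 in vehicle rats, Avpr2 at -0.41 (SE 0.06) and Aqp3 at -0.29 (SE 0.13). Podocyte markers had 4 of 5 lower, with overlapping sums of 32.3 to 39.3 in treated rats and 36.2 to 38.2 in vehicle rats, Nphs1 at -0.17 (SE 0.10) and Wt1 at -0.12 (SE 0.12). Fibroblast markers had 6 of 6 higher, with sums of 32.2 to 35.2 in treated rats and 27.4 to 32.1 in vehicle rats, Pdgfrb at 0.35 (SE 0.09) and Pdgfra at 0.21 (SE 0.07). Endothelial markers had 3 of 6 lower, with sums of 33.9 to 36.4 in treated rats and 36.7 to 38.4 in vehicle rats, Emcn at -0.19 (SE 0.07) and Tek at -0.13 (SE 0.09). Most of each sum was Kdr, at 24.9 ± 1.44 in treated rats and 26.7 ± 0.874 in vehicle rats, with overlapping groups. Pecam1, Flt1 and Tie1 had 0.003 (SE 0.06), 0.07 (SE 0.10) and 0.09 (SE 0.12). Tubular injury markers had 4 of 7 lower, with overlapping sums of 14.2 to 18.4 in treated rats and 14.8 to 18.9 in vehicle rats, Krt19 at -1.29 (SE 0.85, and -0.30 without treated replicate 3) and the matrix protein gene Spp1 at -0.22 (SE 0.31). None of these resident-cell markers was called.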

How the data were processed

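Total RNA of the renal cortex of 6 rats was measured on single-colour Agilent arrays. Processed spot intensities were deposited as written by the scanner software, which per the file headers was Feature Extraction 10.7.1.1 (10.7 in the submitters' processing notes). They are background-subtracted and detrended but carry no scaling across arrays. A series matrix by the authors holds a signal on a linear scale, the processed intensity divided by 1 constant per array, without centring per gene. Its column medians were 0.109, 0.108 and 0.111 for treated and 0.105, 0.105 and 0.105 for vehicle arrays. The scanner flags (other values of 0 or 1) were used as deposited.

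The deposited processed intensity was set to at least 1 and taken to log2, and the 75th percentile of the 61537 probes that are no controls was subtracted per array. These values were fitted with limma 3.58.1 in R 4.3.3 (lmFit, eBayes, two-sided). Outlier spots, 0 to 4 on an array, were dropped, and no spot was saturated. Probes well above background on all 3 arrays of a group were tested, 41218 in all. The brightest tested probe stood for each named gene, giving 32196 rows, and p-values were adjusted by Benjamini-Hochberg over all of them at 0.05. Of the members, 15 of 16 probes were tested, 14 of them well above background on all 6 arrays, and all 9 genes had a tested row. Other probes' differences come from a fit with every probe as a row. Symbols were matched by accession to RefSeq (28206 probes, 45.84%). The procedure was tested on simulated data. Members and lists were chosen with earlier results of these data known. Named genes are the 9 members, up to 4 called or else the 2 largest differences per list, and the 3 genes with the most similar profile to the fibrinogen mean and to C3. C1qc, C2, C8b, Irf7, Ifngr1, Lyz2, Cd68, Adgre1, Cd14, Csf1r, the neighbours of Cfb and C4a, and genes named as not detected were chosen after their values were seen. So were Socs3, Tnfrsf1a, Nfkbia, Hbb, Slc4a1, Cd2, Cd8a, Kdr, Pecam1, Flt1, Tie1, Gp1bb, Gp5, Treml1, S100a9, Camp and Csf3r. With 3 arrays per group the number of arrays limits the precision. A gene that the naming rule selects from the fibrinolysis list is not reported here.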

Additional observations from a re-analysis of the deposited data

How the results depend on the processing

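The count of called members, 0, held in 18 of 19 alternatives, and was 1 (C3) with the array row as a block. Fga, Fgg, C3, C4a, Cfb and Cfi kept their direction in every alternative that was run, from -0.79 to -0.12, 0.32 to 1.34, -1.39 to -0.37, -0.50 to -0.32, -1.17 to -0.70 and -0.34 to -0.14. Some of these fits could not differ. The trended robust variance and the replicate block return the main difference, and the slide block equals leaving out treated replicate 3. The main difference also returns with no filter and, for the main probe, with every probe as a row. So it does with only probes well above background on all 6 arrays, which drops Fgg. The series matrix holds the same intensities over 1 constant per array, so its differences were nearly those of the main fit. For C3, C4a and Cfb, whose groups did not overlap, leaving out single arrays could not change the direction. Fgb turned to 0.053 without vehicle replicate 3 (leaving out single arrays gave -0.25 to 0.053), and C1s to -0.020 with median scaling. Serping1 turned to 0.14 and 0.072 on its other probes, to 0.11 without vehicle replicate 3 and to 0.043 without treated replicate 1 (single arrays, -0.24 to 0.11), and the cause was not tested. The count of called rows, 24, was 85 with normexp, 316 with a trended robust variance, 999 with the array row and 9 with the slide as a block, 2 with no filter and 0 at a threshold of 0.01. Leaving out single arrays gave 0 to 9 called rows and 0 called members. The replicate number as a block gave 1 called row and 0 called members. Deviations of same-numbered arrays correlated at -0.00877, 0.0397 and -0.0102, so the numbers were not treated as pairs. The median of the fibrinogen chains lay between -0.32 and 0.05 and that of the complement members between -0.37 and -0.22. The normexp correction used the median spot signal, chosen after the files were seen, in place of the planned correction on the mean signal, which was not run. Among the wider lists, the median of the classical and lectin pathway ranged from -0.37 to 0.029. Fgg lies near background, and its values there have no firm order.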
